A study of Capra hircus with 2 samples.

Results

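The miR-15, miR-16, miR-195 and miR-497 family of the goat (named chi-miR in the table, for Capra hircus) was followed in natural killer (NK) cells of the uterus and of the blood. Members were chosen by name: every row of the deposited table for miR-15a, miR-15b, miR-16, miR-16a, miR-16b, miR-195 or miR-497, with whichever arm of the precursor was listed. The rule found 9 mature arms from 6 genes, of 590 miRNAs listed in all and 314 listed under goat miRNA names. They are both arms of chi-miR-15a, the 3p arm of chi-miR-15b, the 5p arm of chi-miR-16a, both arms of chi-miR-16b, both arms of chi-miR-195 and the 5p arm of chi-miR-497. miR-15b-5p, miR-16a-3p and miR-497-3p, and a miR-16 without a letter, are not in the table, which holds only miRNAs called different by the authors, so nothing is said of them. Every sum below covers the listed arms only.

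There were 2 small RNA libraries of female goats: uNK, from NK cells separated from the uterus, and pNK, from NK cells separated from peripheral blood. The sources used here do not give age, breed, reproductive state, the number of animals per library or the markers used for the separation. The study's title concerns miR-1 and its target TWEAK in uterine NK cells; the family described here was measured in the same libraries. With 1 library per group there is no replicate check and no p-value, and each difference below is one between 2 libraries.

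The 5p arms of this family begin with a common seed, the short stretch at the 5′ end that pairs with target messenger RNAs, and are known to repress cyclins and other genes that drive cells into division, and BCL2, which protects cells from apoptosis. The 3p arms come from the opposite side of the precursor's hairpin and do not carry that seed. The genes lie in separate pairs in the genome: miR-15a with miR-16a, miR-15b with miR-16b, and miR-195 with miR-497. The miR-15a and miR-16 pair is best known for its loss in human chronic lymphocytic leukaemia, and in mice the miR-15/16 genes are needed for the maturation of NK cells. In mice miR-195 is known for the withdrawal of heart muscle cells from the cell cycle after birth.

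The uNK library held 31780925 reads and the pNK library 30063449, computed from the counts and their RPM values. The 9 arms took 131528 reads of uNK and 948960 reads of pNK, which are 1.11% and 6.64% of the reads of all listed miRNAs in those libraries. Levels are given as RPM, reads per 1000000 reads of the library. Intervals are exact 95% Clopper-Pearson intervals and cover counting error only.

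The family divided by gene pair. All 6 listed arms of miR-15 and miR-16 were lower in uNK by at least 2-fold, and all 3 listed arms of miR-195 and miR-497 were higher by at least 2-fold. Since the table holds only called miRNAs, most of it lies past that fold in one direction or the other: 62% of the 590 listed miRNAs were lower by at least 2-fold and 36.1% higher, and among the 314 annotated ones 45.9% were lower and 50.6% higher. Neither count of arms alone sets the family apart. Of the 5p arms, which carry the family seed, all 3 of miR-15a, miR-16a and miR-16b were lower and both of miR-195 and miR-497 higher. The 4 listed 3p arms took 0.551% of the reads of the 9 arms in uNK and 0.264% in pNK, so the sums below are nearly those of the 5p arms. The median log2 ratio of uNK over pNK was -3.28 over the 6 arms of miR-15 and miR-16 and 3.80 over the 3 arms of miR-195 and miR-497. Over all 9 arms it was -2.09, beside 1.15 over the annotated miRNAs and -2.55 over all listed ones. As most listed miRNAs lie past 2-fold in either direction, these last 3 medians pool both directions and are not typical ratios.

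chi-miR-16a-5p, the most abundant family member of the blood library, had 1173.35 RPM in uNK (37290 reads) and 22491.9 RPM in pNK (676184 reads). It was the 5th most abundant listed miRNA of pNK and the 27th of uNK. It was 19.2-fold lower in uNK, with an interval of 19.0 to 19.4, the most negative ratio of the 9 arms. Whether fewer cells that carry the miRNA or less of it per cell lies behind such a ratio cannot be told apart in bulk libraries. RPM is a share of the reads of a library, so such a ratio also depends on the other RNAs in it. chi-miR-16b-5p, from the other miR-16 gene, had 702.5 RPM in uNK (22326 reads) and 6954.66 RPM in pNK (209081 reads). It was 9.90-fold lower in uNK (interval 9.76 to 10.04), so its interval lies far from that of miR-16a-5p. The mature forms of miR-16a and miR-16b are taken to be nearly identical, and how the authors assigned reads between them is not stated. Their separate values are therefore uncertain. Summed, the pair of 5p arms had 1876 RPM in uNK and 29447 RPM in pNK and was 15.7-fold lower in uNK (15.6 to 15.8).

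chi-miR-15a-5p, made beside miR-16a, had 186.72 RPM in uNK (5934 reads) and 1888.71 RPM in pNK (56781 reads). It was 10.1-fold lower in uNK (9.85 to 10.4), a ratio whose interval overlaps that of miR-16b-5p and not that of its neighbour miR-16a-5p. miR-15b was listed by its 3p arm, with 6.01 RPM in uNK (191 reads) and 56.98 RPM in pNK (1713 reads), 9.48-fold lower in uNK (8.16 to 11.1). The remaining 3p arms were scarce and differed less. miR-15a-3p had 5.03 RPM in uNK (160 reads) and 21.42 RPM in pNK (644 reads), 4.25-fold lower in uNK (3.57 to 5.09). miR-16b-3p had 1.10 RPM in uNK (35 reads) and 3.39 RPM in pNK (102 reads), 3.08-fold lower in uNK (2.08 to 4.66). It is the one family arm that came under a 2-fold difference with another scaling of the libraries, at a log2 ratio of -0.88 with TMM (a trimmed mean of log ratios).

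As the reads were assigned, chi-miR-497-5p was the leading single arm of the family in the uterine library. Summed, miR-16a-5p and miR-16b-5p stood above it there, at 1876 RPM. chi-miR-497-5p had 1592.62 RPM in uNK (50615 reads) and 113.66 RPM in pNK (3417 reads), and was 14.0-fold higher in uNK (13.5 to 14.5). Among the listed miRNAs it was the 23rd most abundant of uNK and the 98th of pNK. Its neighbour chi-miR-195-5p had 460.59 RPM in uNK (14638 reads) and 33.00 RPM in pNK (992 reads), and was also 14.0-fold higher in uNK (13.1 to 14.9). The scarce miR-195-3p had 10.67 RPM in uNK (339 reads) and 1.53 RPM in pNK (46 reads), 6.97-fold higher (5.11 to 9.70). With 1 RPM added to both libraries its log2 ratio of 2.80 became 2.21, under the lower bound of that interval, 2.35 on the log2 scale. The authors' deposited table, which scales the libraries differently, gives log2 ratios of -3.91 for miR-16a-5p, -2.96 for miR-16b-5p, 4.15 for miR-195-5p and 4.16 for miR-497-5p. These are nearly the ratios of the same counts scaled to the totals of the listed miRNAs, so they are not a separate measurement.

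**Figure D1:**
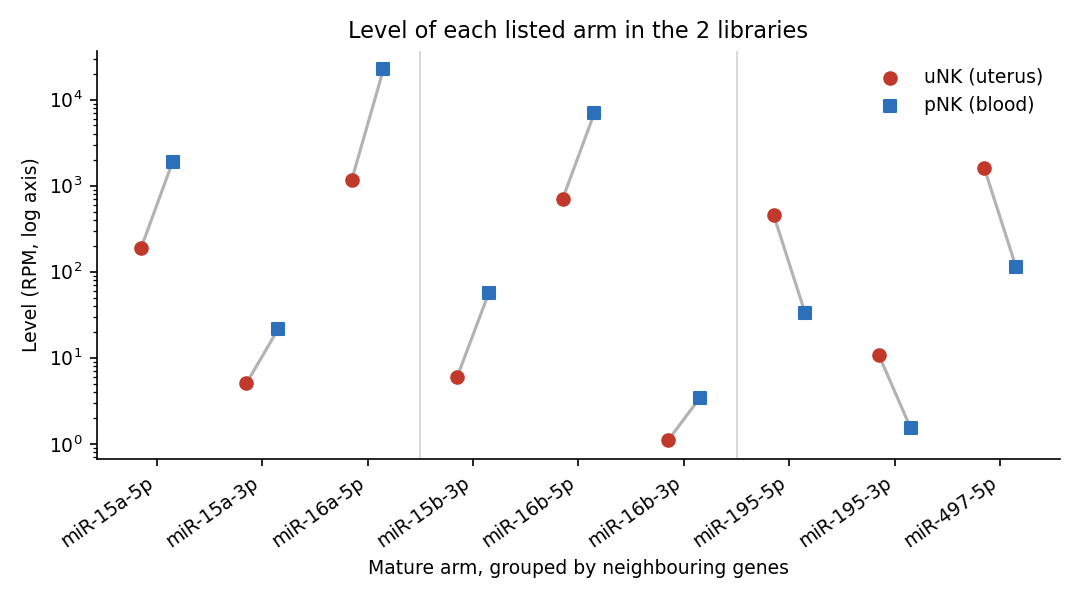
Level of each of the 9 listed arms in RPM on a log axis, with uNK (circles) left of pNK (squares), 1 library each; grey lines join the 2 values of an arm and vertical lines part the gene pairs. The 6 arms of miR-15 and miR-16 lie lower in uNK and the 3 arms of miR-195 and miR-497 lie higher; miR-16a-5p stands at 1173.35 RPM in uNK against 22491.9 RPM in pNK, and miR-497-5p at 1592.62 against 113.66 RPM.

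The order of the members by read level was different in the libraries. In uNK it ran from miR-497-5p through miR-16a-5p, miR-16b-5p, miR-195-5p and miR-15a-5p to miR-195-3p, miR-15b-3p, miR-15a-3p and miR-16b-3p. In pNK it ran from miR-16a-5p through miR-16b-5p, miR-15a-5p, miR-497-5p and miR-15b-3p to miR-195-5p, miR-15a-3p, miR-16b-3p and miR-195-3p. Only miR-15b-3p and miR-15a-3p in uNK, with 191 and 160 reads, were neighbours in these orders whose counting intervals overlapped. Mature arms can be captured into a library with unequal efficiency, so an order of reads need not be an order of molecules. The first place of miR-497-5p in uNK also rests on the uncertain split between miR-16a-5p and miR-16b-5p. Together these miR-16 arms had 59616 reads in uNK, against 50615 for miR-497-5p.

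Shares within the family do not depend on how the libraries are scaled to each other. They do depend on which arms were called different and so listed. miR-15b-5p, for example, is not among them. miR-195 and miR-497 together made up 49.9% of the reads of the 9 listed arms in uNK (49.6 to 50.1%) and 0.469% in pNK (0.456 to 0.483%). Read for read, their arms thus nearly equalled those of miR-15 and miR-16 in uNK, at 65592 against 65936 reads. In pNK they counted 4455 reads against 944505. Between the libraries, the ratio of miR-195 and miR-497 reads to miR-15 and miR-16 reads was 211-fold higher in uNK (Wald interval 204 to 218), a log2 difference of 7.72.

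By single arm, miR-497-5p made up 38.5% of the family in uNK (38.2 to 38.7%) and 0.360% in pNK. miR-195-5p made up 11.1% in uNK (11.0 to 11.3%) and 0.105% in pNK. miR-16a-5p made up 28.4% in uNK (28.1 to 28.6%) and 71.3% in pNK (71.2 to 71.3%). The shares of miR-16b-5p and miR-15a-5p differed less between the libraries. miR-16b-5p held 17.0% of the family in uNK and 22.0% in pNK, and miR-15a-5p 4.51% in uNK and 5.98% in pNK. Over all 9 arms the family had 4139 RPM in uNK and 31565 RPM in pNK, 7.63-fold lower in uNK (7.58 to 7.67). The higher level of miR-195 and miR-497 in uNK, 2064 RPM against 148 RPM in pNK, was small beside the lower level of miR-15 and miR-16, 2075 RPM in uNK against 31417 RPM in pNK.

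**Figure D2:**
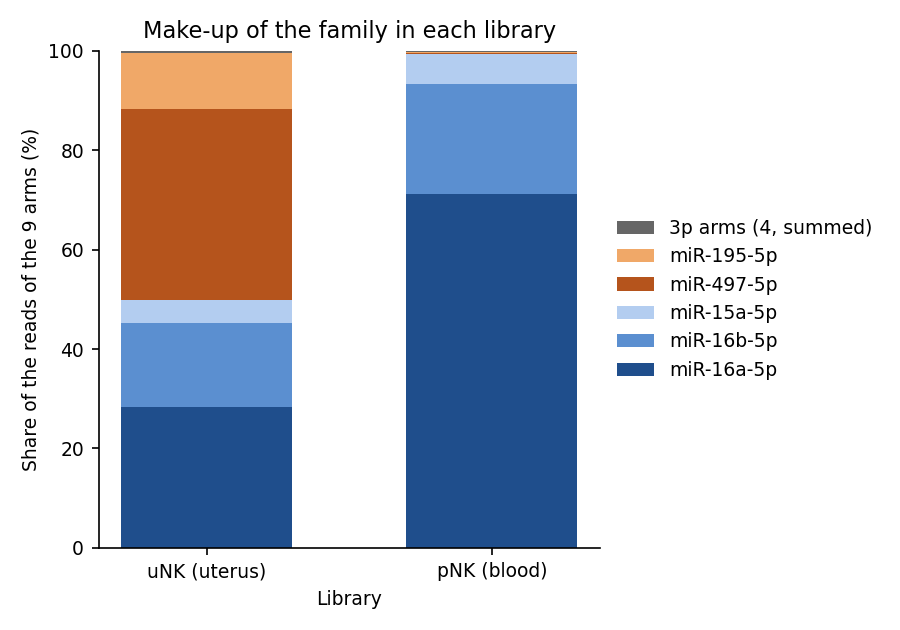
Share of the reads of the 9 listed arms, in percent, held by each 5p arm and by the 4 3p arms together, in uNK (left bar) and pNK (right bar), 1 library each. The orange parts, miR-497-5p and miR-195-5p, fill 38.5% and 11.1% of the uNK bar and are a thin line at the top of the pNK bar, where miR-16a-5p fills 71.3%.

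Genes that neighbour each other can be made from 1 primary transcript, so the members were also compared within their pairs. For each miR-497-5p read there were 0.289 miR-195-5p reads in uNK and 0.290 in pNK. The uNK ratio was 0.996 times the pNK ratio (Wald interval 0.926 to 1.07), so the pair differed by 0.01 log2 units between the libraries although each arm differed 14.0-fold. Of 83 pairs of neighbouring listed miRNA genes within 10 kb in the goat assembly ARS1.2, this pair had the smallest difference in log2 ratio. The median over the 83 was 0.48. The pair's counting interval, -0.11 to 0.10 log2 units, also covers the differences of the pairs ranked next, so its first place is not resolved. Such likeness was not particular to the pair. Of 166 annotated miRNAs outside the family with at least 1000 reads, 15 lay within 0.1 log2 units of miR-497-5p. miR-16b-5p and miR-15b-3p, which are opposite arms of their precursors, differed by 0.06, the 11th smallest. miR-15a-5p and miR-16a-5p differed by 0.92, the 61st. Per 100 reads of miR-16a-5p there were 15.9 reads of miR-15a-5p in uNK and 8.40 in pNK, a ratio 1.90-fold higher in uNK (1.84 to 1.95). These last values share the uncertainty of miR-16a and miR-16b. The reads of miR-16a-5p were 1.67 times those of miR-16b-5p in uNK and 3.23 times in pNK.

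**Figure D3:**
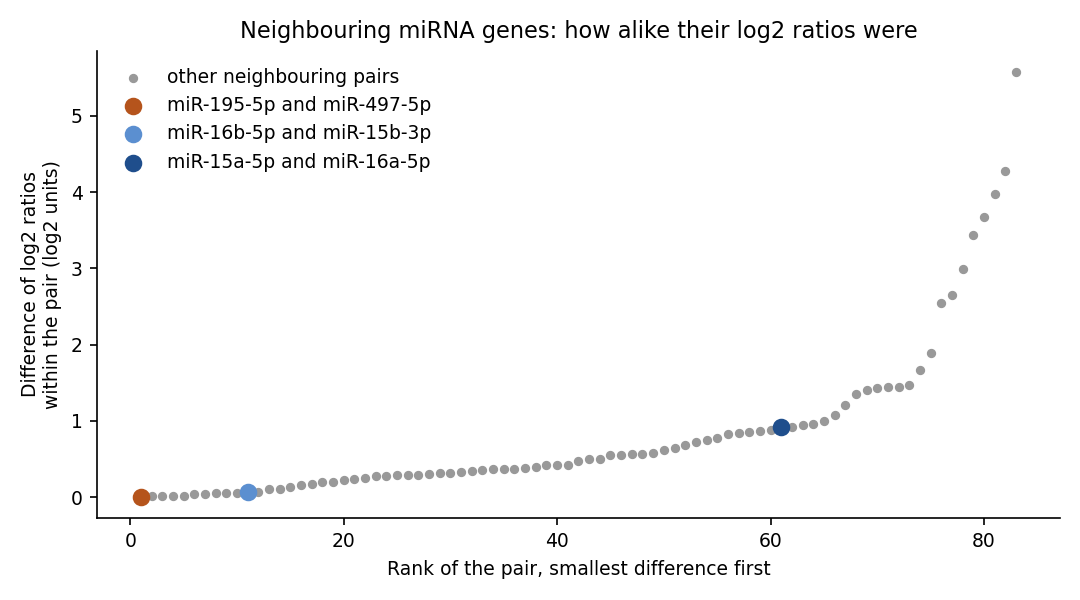
Absolute difference in log2 ratio (uNK over pNK) between the most abundant listed arms of neighbouring miRNA genes, for 83 pairs ranked from the smallest; coloured points are the 3 family pairs. miR-195-5p with miR-497-5p ranks first at 0.01, miR-16b-5p with miR-15b-3p 11th at 0.06 and miR-15a-5p with miR-16a-5p 61st at 0.92. The ranks take no account of counting error.

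Both arms were listed for miR-15a, miR-16b and miR-195, and in these the 5p arm dominated in both libraries. miR-15a gave 37.1 reads of its 5p arm per 3p read in uNK and 88.2 in pNK. miR-16b gave 638 in uNK and 2050 in pNK, resting on 35 and 102 reads of the 3p arm. miR-195 went the other way, with 43.2 in uNK and 21.6 in pNK. After adding 0.5 counts to each arm, the differences of the log2 arm ratio (uNK minus pNK) were -1.25 for miR-15a, -1.70 for miR-16b and 1.01 for miR-195. In each case the scarcer 3p arm thus differed less between the libraries than its 5p arm. Such differences were common: of 94 precursors with both arms listed, 54 (57.4%) differed by at least 1 log2 unit, and the median absolute difference was 1.11.

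Cell type marker lists lay on the side of each part of the family. Since only called miRNAs are listed, most arms must lie on one side or the other. Among the 314 annotated miRNAs 45.9% were lower in uNK by at least 2-fold and 50.6% higher. A direction shared between 2 single libraries does not show that miRNAs vary together. No miRNA marks NK cells alone, so the labelled cell type could be set only beside these lists. None of the arms on the marker lists was at 0 in either library, and their part in the family's values was not tested. Beside miR-15 and miR-16, the 3 listed arms of the lymphocyte miRNAs miR-150 and miR-155 were lower in uNK, with a summed level of 186 RPM in uNK and 20518 RPM in pNK. miR-181, another miRNA of lymphocytes, was not on the list and its values were taken up later. They did not all go this way: miR-181d was 3.02-fold higher in uNK (63.2 RPM in uNK and 20.9 RPM in pNK) and miR-181c-5p 1.98-fold higher (106 RPM in uNK and 53.4 RPM in pNK), whereas miR-181b-3p had 0 reads in uNK and 8 in pNK. Both arms of miR-223, the main miRNA of granulocytes and monocytes, were lower too, at 21.1 RPM in uNK and 28632 RPM in pNK. The red cell markers did not go with miR-16: all 4 listed arms of miR-451 and miR-144 were higher in uNK, at 9817 RPM in uNK against 3258 RPM in pNK, and miR-486 is not in the table. Of the red cell level, miR-451-5p alone gave 9800 RPM in uNK and 3251 RPM in pNK. For miR-451-3p, with 16 reads in uNK and 6 in pNK, the counting interval of the ratio included no difference. With another scaling of the libraries, the median ratio, every log2 ratio shifts by -0.67. miR-144-3p, at 0.67 on the RPM scale, then showed no difference.

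Beside miR-195 and miR-497, all 11 arms of the smooth muscle and stromal miRNAs miR-143, miR-145, miR-199a to miR-199c and miR-214 were higher in uNK, with a summed level of 191215 RPM in uNK and 12889.5 RPM in pNK. Most of that level was miR-143-3p alone, at 169065 RPM in uNK and 11522 RPM in pNK. The log2 ratios of the 11 arms ran from 2.84 to 5.92 with a median of 3.94. That range surrounds the 3.80 of miR-195-5p and the 3.81 of miR-497-5p. All 4 arms of the list named skeletal muscle (miR-1, miR-133a, miR-133b and miR-206) were higher, at 1329 RPM in uNK and 107.05 RPM in pNK. Their log2 ratios were 3.58 to 3.76. Of that level, miR-1, which the study's title concerns in uterine NK cells, gave 916 RPM in uNK. The list's name is therefore only a label, and which cells these reads came from was not tested. All 5 epithelial arms (the miR-200 family and miR-141 and miR-429) were higher, at 3592 RPM in uNK and 257 RPM in pNK, with log2 ratios of 3.44 to 3.97. Both arms of the endothelial miR-126 were higher by less, at 10555 RPM in uNK and 1769 RPM in pNK, with log2 ratios of 2.50 and 2.58.

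**Figure D4:**
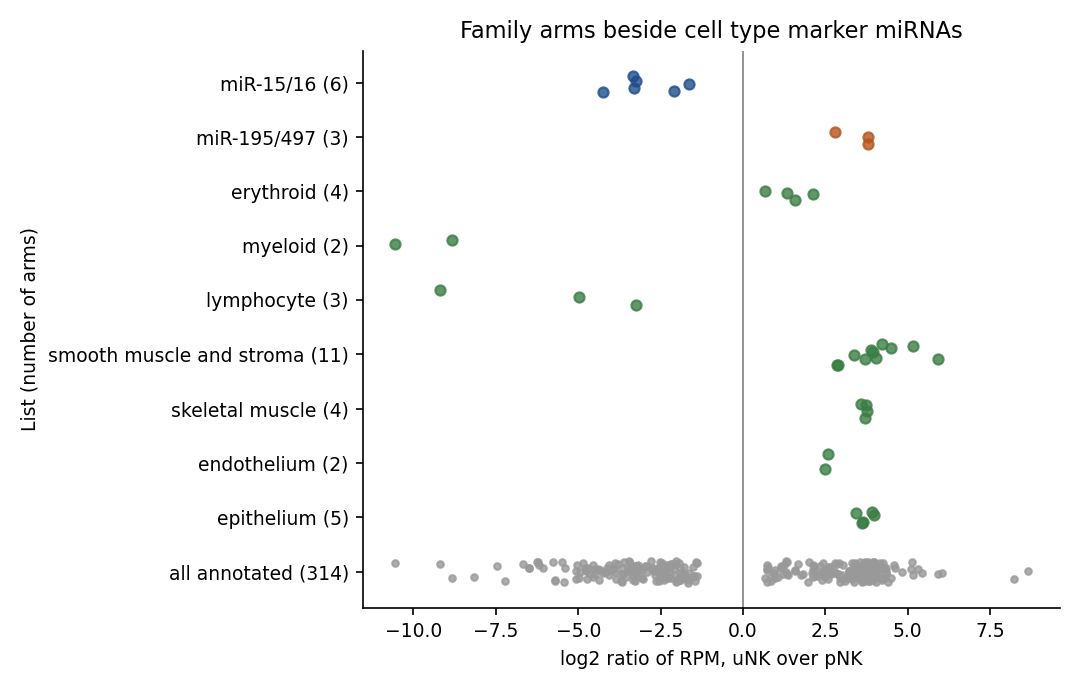
Log2 ratio of RPM, uNK over pNK, of each listed arm (points, spread vertically for visibility) of the family, of the cell type marker lists and of all 314 annotated miRNAs; the gap around 0 is left by the authors' filter. The 5p arms of miR-195 and miR-497 lie at 3.80 and 3.81, within the ranges of the stromal and epithelial markers. The highest arm of the list drawn as skeletal muscle lies just below them, at 3.76. miR-195-3p, at 2.80, lies under all arms of these lists and above the endothelial arms. The miR-15 and miR-16 arms lie at -4.26 to -1.62, with the red cell markers on the other side of 0.

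Of 7 further names looked for, of miRNAs known for a like seed, miR-103-3p and miR-424-5p were listed, and the opposite arm miR-424-3p, which is not known for that seed. miR-424-5p, from a cluster on the X chromosome, had 2014.51 RPM in uNK and 146.76 RPM in pNK, which is 13.7-fold more in uNK. Its interval, 13.3 to 14.2, overlaps those of miR-497-5p and miR-195-5p. The ratio of miR-424-3p was 5.01 (4.11 to 6.14). miR-103-3p, which is made in many cell types, had 289 RPM in uNK and 1101 RPM in pNK and was 3.81-fold lower in uNK (3.73 to 3.90), less far than the 5p arms of miR-15a, miR-16a and miR-16b.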

How the data were processed

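All values come from 1 table in which the authors compared the libraries; its name points to DEGseq and to a filter for differential miRNAs. Of its 590 mature miRNAs, 276 are numbered predictions. Per the file headers, 2 columns are read counts. The deposited expression columns behave as RPM: count over value was constant within each library, and library totals were taken from miRNAs with at least 5000 reads. The authors' log2 ratio, p-values and q-values were deposited in further columns. The p-values and q-values were not used. The smallest absolute log2 ratio in the deposited table is 1.01. Per the labels' protocols, Trizol was used to extract total RNA. The aligner, the counter, the build and the miRNA set behind the counts are not stated there.

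Groups came from the source names. Folds are ratios of RPM, with exact 95% intervals (Clopper-Pearson) computed from both read counts, and ratios of ratios have Wald intervals on the log scale. No molecular identifiers are mentioned, so intervals cover counting error only. No member had a count of 0; for the annotated miRNAs as a whole, 0.5 counts stood in place of 0. The interval computation was tested on simulated counts. Members, lists and alternatives were chosen with earlier results of these data known. Named were all member arms, the wider group with a like seed by name, neighbouring genes within 10 kb, and for each member the 3 annotated miRNAs with the nearest log2 ratio among those with at least 1000 reads over both libraries. Alternatives were other scalings (TMM in edgeR 4.0.16 under R 4.3.3, the median ratio, and the totals over listed miRNAs), a pseudocount of 1 RPM, 5p arms only and a filter of 100 reads. A gene table of assembly ARS1.2, in which all 6 member genes were found, served for neighbours only. No mature sequences were used here. Python 3.11.15, numpy 2.4.6, pandas 2.3.3, scipy 1.17.1 and matplotlib 3.10.9 were used.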

Additional observations from a re-analysis of the deposited data

How the results depend on the processing

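No paired analysis was possible because uNK and pNK are single libraries; neither could be left out. Relative to the RPM scale, every log2 ratio shifted by 0.35 with the listed totals, by -0.67 with the median ratio and by 0.74 with TMM; all were computed on miRNAs called different. No family arm changed direction under any alternative run. With the listed totals, the median ratio and TMM in this order, the log2 ratio of the summed miR-16 arms was -3.63, -4.64 and -3.23 (-3.97 on the RPM scale), that of the summed miR-15 and miR-16 arms -3.57, -4.59 and -3.18 (-3.92), and that of the summed miR-195 and miR-497 arms 4.15, 3.13 and 4.54 (3.80). With a pseudocount of 1 RPM they were -3.97, -3.92 and 3.79, and with 5p arms only -3.97, -3.93 and 3.81. The difference of 7.72 between the summed ratios is not touched by scaling and was 7.77 with miR-16 without miR-15. The number of arms lower by at least 2-fold was 5 with TMM and 6 otherwise, and the number higher was 3 throughout. miR-16 arms held 45.4% of the family's reads in uNK and 93.3% in pNK. With miR-424-5p added these shares were 30.5% in uNK and 92.9% in pNK, with miR-15 counted in 50.1% and 99.5%, and among 5p arms 93.5% in pNK. The alternatives with miR-424-5p, and those with miR-15 added to or left out of the miR-16 arms, were chosen after seeing the data. Adding miRNAs by matching bases 2 to 8 of the mature sequence was not run. Depth limits miR-16b-3p and miR-195-3p most, with 35 and 46 reads in their lower library.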

Other observations

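Of 166 annotated miRNAs outside the family with at least 1000 reads over both libraries, 15 had a log2 ratio within 0.1 of that of miR-497-5p and 16 within 0.1 of that of miR-195-5p. The nearest to miR-497-5p were miR-195-5p, miR-411b-5p and miR-218, at 0.01 log2 units or less, and the nearest to miR-195-5p were miR-218, miR-497-5p and miR-30f-5p. The pNK count was 6.75% of the uNK count for miR-497-5p and 6.78% for miR-195-5p. Over the 98 annotated miRNAs higher in uNK with at least 500 uNK reads, that share had a median of 8.33% and quartiles of 6.66% and 14.4%. For miR-195-3p, with fewer reads, it was 13.6%, and its nearest miRNAs were miR-214-5p, miR-125b-5p and miR-199c-3p.

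On the lower side, miR-16b-5p and miR-15a-5p were among each other's nearest miRNAs, 0.03 log2 units apart, though their genes belong to different pairs. The others near miR-16b-5p were miR-1343 and miR-155-5p, which acts in activated lymphocytes, and those near miR-15a-5p were miR-27b-5p and miR-1343. miR-15b-3p lay nearest to miR-155-5p, miR-7-3p and miR-1343. miR-16a-5p, at a log2 ratio of -4.26, lay nearest to miR-363-3p, miR-1388-3p and miR-197-3p, at distances of 0.07 to 0.13. The scarce 3p arms lay elsewhere: miR-15a-3p was nearest to miR-98-5p, miR-454-3p and miR-23a, and miR-16b-3p to miR-29b-3p, miR-10a-5p and let-7a-3p. With 1 library per group, likeness of a single ratio says nothing of how these miRNAs vary among animals.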
